A study of Mus musculus with 12 samples.

Results

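The genes described here are 53 genes of mitosis and the preceding G2 phase, read by gene name from an RNA-seq count table of mouse gastric organoids. They are 53 of the 55421 gene rows of that table, and all 53 were among the 16152 genes with enough counts to be tested. Organoids are epithelial cultures grown in Matrigel from isolated stomach glands, here from the antrum (the distal stomach) and from the corpus (the acid-producing body) of wild-type mice. Every culture had been passaged at least 3 times in a medium with 50% L-WRN conditioned medium, which supplies Wnt, R-spondin and Noggin, and with fetal bovine serum at 10% for antrum and 20% for corpus. The 4 groups of 3 libraries hold 1 library from each of the lines numbered 8025, 8026 and 8028. Inhibited antral and inhibited corpus organoids were given XAV939, which blocks tankyrase and so dampens Wnt signalling, on day 4 after passage. At the same time R-spondin and Wnt were left out of their medium and Noggin was supplied at 100 ng/mL. The labels give the XAV939 dose as 1 mM. Vehicle antral and vehicle corpus organoids stayed in growth medium with DMSO, although their treatment label reads "none". RNA was taken 24 h after treatment. The share of 50% L-WRN conditioned medium was listed for vehicle libraries and not for inhibited ones. Inhibitor, factor withdrawal, any other change of medium and Noggin came together, so their effects cannot be told apart. Region cannot be told apart from the serum share of the medium.

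Entry into mitosis is driven by CDK1 bound to A and B cyclins, and the genes needed for it are transcribed together as cells pass from S phase into G2. In cells that have left the cycle the DREAM complex represses many of these genes through a promoter element called the CHR (cell cycle genes homology region), and in dividing cells the MuvB core of that complex joins B-MYB and then FOXM1, which activate them. Cell division in gastric glands takes place mainly in the isthmus, and in the antrum also in LGR5-positive cells of the gland base that depend on Wnt. Ki-67, the product of Mki67, is the usual stain for dividing cells in this tissue.

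Library totals were 18858022 to 31656696 counts. Levels are given as CPM (counts scaled to library size), normalised by trimmed mean of M values (TMM), and 3 counts in a library correspond to 0.0889 to 0.177 CPM. The Wnt targets Axin2, Lgr5, Nkd1 and Sp5 summed to 21.1, 22.7 and 20.4 CPM in inhibited antral libraries of lines 8025, 8026 and 8028, against 167.5, 166.5 and 176 CPM in vehicle antral libraries. In the corpus the same sum was 7.87, 11.1 and 27.3 CPM with inhibition, against 169.7, 159.0 and 146 CPM with vehicle. All 4 targets were called lower in both regions. The inhibited corpus library of line 8028 thus kept the highest target level of the 6 inhibited libraries, and it also lay apart from the other corpus libraries on the second principal component of all genes. Ribosomal RNA-like genes took 17.2% and 6.87% of the counts in vehicle antral libraries of lines 8025 and 8028, against 0.839% to 3.45% in the other 10 libraries. Markers of epithelium summed to 16500 to 18700 CPM in inhibited and 8696 to 10570 CPM in vehicle libraries, 5 of the 6 being called higher in both regions. Epcam went the other way, with log2 ratios of inhibited over vehicle of -0.302 in the antrum and -0.468 in the corpus. It was called lower in the corpus, and in both regions with the line as a block (described below). The part of these markers in the differences below was not tested. In contrast, markers of fibroblasts summed to at most 1.47 CPM and those of parietal cells to at most 1.56 CPM in any library. Immune cell markers summed to 10.3 to 52.2 CPM, endothelial markers to 2.42 to 17.2 CPM and endocrine markers to 0.765 to 6.27 CPM. Below, values of 3 libraries are listed in the order of lines 8025, 8026 and 8028, differences are log2 ratios of inhibited over vehicle with their standard error, and adjusted p-values are Benjamini-Hochberg values from edgeR's quasi-likelihood test over all genes tested. Where a second value follows, it is from the same test with the line as a block, which compares inhibited with vehicle libraries within a line.

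The promoters of these genes are shown first because the CHR element and the CCAAT box bound by NF-Y are what the group is known to share in sequence. RefSeq (GRCm38.p6) gave 47 promoters for 44 of the 53 genes, each running from 250 bases before to 50 after the transcription start, and the others (Aurkb, Ccna2, Cdc25c, Dlgap5, Foxm1, Kif20a, Smc4, Stmn1 and Tpx2) had no entry. The CHR core TTTGAA, on either strand, was found in 74.5% of the 47 promoters and in 17.9% of all 32851 promoters. CCAAT on either strand was found in 80.9% of the members' promoters and in 37.4% of all promoters, and both were found in 68.1% and 6.95%. TTTGAA lay within 50 bases of the start in 66% of the members' promoters and in 5.14% of all. Among the 13786 promoters of genes that passed the count filter, the shares were 12.3% for TTTGAA, 37.8% for CCAAT and 5.06% for both. Matches of the 2 motifs overlapped in 1 of the members' promoters. A match is a description of these letters and no evidence of a bound factor.

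The stretches below run from 120 bases before to 40 after the start, in the direction of the gene, with TTTGAA and CCAAT, or their reverse complements TTCAAA and ATTGG, in capitals. Cenpf (chr1:189688047-189688206, minus strand) and Aspm (chr1:139454653-139454812, plus strand) are shown because they were called lower in both regions and carry both motifs. Mad2l1 and Stmn1 were also called lower in both regions. Mad2l1 had neither motif in its RefSeq window, and Stmn1 had no entry.
Cenpf: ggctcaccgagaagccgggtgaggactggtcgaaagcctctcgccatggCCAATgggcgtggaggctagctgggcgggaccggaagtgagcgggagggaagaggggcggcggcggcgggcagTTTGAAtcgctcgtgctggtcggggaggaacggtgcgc
Aspm: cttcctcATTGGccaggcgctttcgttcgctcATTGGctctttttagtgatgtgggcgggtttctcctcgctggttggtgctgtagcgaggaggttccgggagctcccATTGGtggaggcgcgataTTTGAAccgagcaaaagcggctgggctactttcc
Plk1 (chr7:122159315-122159474, plus strand) and Cdc20 (chr4:118437304-118437463, minus strand) encode the central kinase of mitosis and the activator of the anaphase-promoting complex, and Mki67 (chr7:135716340-135716499, minus strand) has a pair of CHR cores further upstream.
Plk1: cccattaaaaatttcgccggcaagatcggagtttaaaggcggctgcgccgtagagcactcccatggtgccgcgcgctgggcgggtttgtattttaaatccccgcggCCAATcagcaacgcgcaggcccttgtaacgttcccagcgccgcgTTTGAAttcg
Cdc20: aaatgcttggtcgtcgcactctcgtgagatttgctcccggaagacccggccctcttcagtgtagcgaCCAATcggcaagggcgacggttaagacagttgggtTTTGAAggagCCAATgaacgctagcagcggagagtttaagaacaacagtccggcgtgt
Mki67: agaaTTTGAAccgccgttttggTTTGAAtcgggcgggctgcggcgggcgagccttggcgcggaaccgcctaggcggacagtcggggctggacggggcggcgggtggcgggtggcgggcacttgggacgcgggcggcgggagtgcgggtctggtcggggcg
Kif23 (chr9:61946760-61946919, minus strand) is the gene with the highest log2 difference in both regions and Birc5 (chr11:117849117-117849276, plus strand) is among those nearest 0 in the antrum. Bub3 (chr7:131560250-131560409, plus strand) carries its CHR core on the opposite strand.
Kif23: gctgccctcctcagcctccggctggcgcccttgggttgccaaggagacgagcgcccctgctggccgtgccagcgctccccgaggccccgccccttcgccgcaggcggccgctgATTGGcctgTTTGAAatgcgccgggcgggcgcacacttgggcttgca
Birc5: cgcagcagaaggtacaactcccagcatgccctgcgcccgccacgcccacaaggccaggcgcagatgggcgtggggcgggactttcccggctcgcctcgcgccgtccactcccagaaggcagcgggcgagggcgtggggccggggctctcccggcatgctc
Bub3: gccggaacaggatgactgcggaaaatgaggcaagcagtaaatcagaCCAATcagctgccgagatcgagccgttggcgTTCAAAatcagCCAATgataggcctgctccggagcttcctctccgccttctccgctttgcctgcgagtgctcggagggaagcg
Kif23, which was not lower after inhibition, thus holds both motifs within 10 bases of its RefSeq start. The last 30 bases of the window lay in a GENCODE transcript of the gene for 34 of the 47 promoters, among them those of the genes shown here other than Kif23, so for the remaining promoters the RefSeq window may not cover the start that GENCODE annotates, and a motif not found there may lie outside it. Across the 44 genes, the median log2 difference in the corpus was -0.635 for the 32 with TTTGAA and -0.623 for the 12 without it. In the antrum the medians were -0.527 with and -0.443 without TTTGAA. For CCAAT the order was the reverse. The corpus medians were -0.601 for the 35 genes with it and -0.707 for the 9 without it. The antral medians were -0.479 with and -0.55 without CCAAT.

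**Figure D1:**
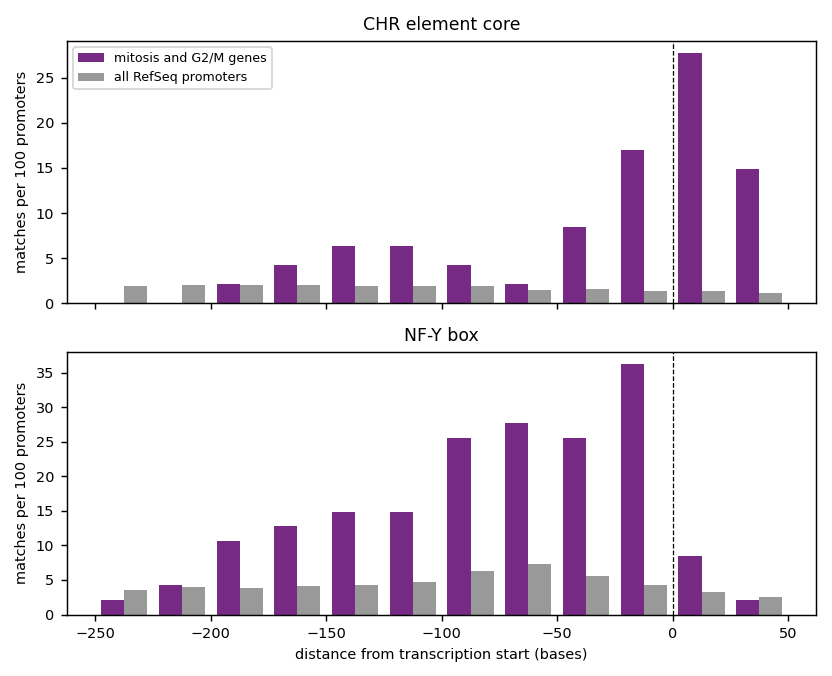
Motif matches per 100 promoters in bins of 25 bases (y axis) against distance from the transcription start in bases (x axis), for promoters of the mitosis and G2/M genes (purple) and for all RefSeq promoters (grey). The members' matches to the CHR core crowd around the start, where 66% of their promoters have one within 50 bases, against 5.14% of all promoters.

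Transcripts of the 53 genes together were less abundant after inhibition in all 6 line pairs. Their summed level was 3332, 4322 and 3420 CPM in inhibited antral libraries, against 5029, 5731 and 4724 CPM in vehicle antral libraries. In the corpus the sum was 1945, 2648 and 4696 CPM with inhibition, against 4199, 4500 and 5247 CPM with vehicle. The antral groups did not overlap, and the corpus groups overlapped through the inhibited library of line 8028, which was above 2 of the 3 vehicle libraries. In bulk RNA, fewer dividing cells and less of these transcripts per dividing cell cannot be told apart.

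**Figure D2:**
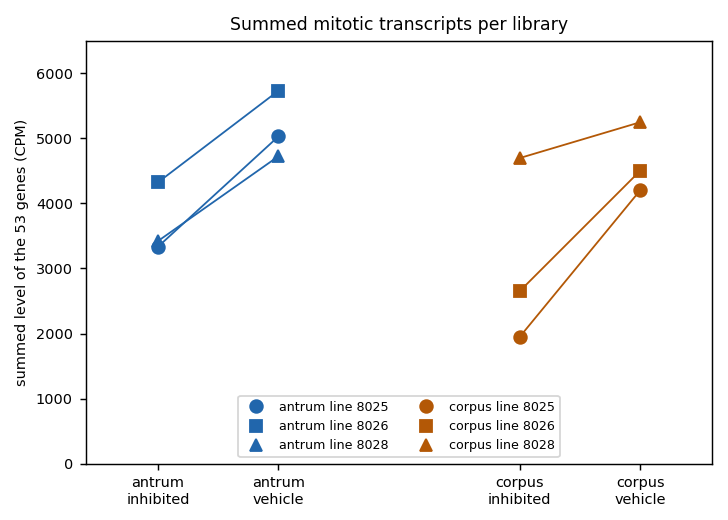
Summed level of the 53 genes in CPM (y axis) in each of the 12 libraries, with inhibited left of vehicle in each region and a line joining the 2 libraries of a line. Every line is lower with inhibition, and corpus line 8028 differs least, with 4696 CPM inhibited against 5247 CPM vehicle.

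Of the 53 genes, 52 had a log2 difference below 0 in the antrum and 52 in the corpus, Kif23 being the exception in both. The median difference was -0.494 in the antrum and -0.601 in the corpus, beside -0.0439 and -0.0374 over all genes tested. Each gene's own test was less uniform. In the antrum 4 genes were called lower and 0 higher at an adjusted p of 0.05, which is 7.55% of the members where 13.4% of all genes tested were called lower. In the corpus 12 genes were called lower and 0 higher, which is 22.6% where 15.4% of all genes tested were called lower. By adjusted p, the antral share called lower was thus below that of all genes and the corpus share above it. At an unadjusted p of 0.05, 16 genes differed in the antrum and 34 in the corpus. Kif23 was not among them, so all were lower. Of all 16152 genes tested, 6658 and 6755 differed, but these counts cover both directions. The 4 antral genes were Stmn1, Mad2l1, Cenpf and Aspm, and all 4 were also among the 12 corpus genes, the others being Top2a, Ttk, Pttg1, Nusap1, Hmmr, Anln, Ect2 and Ncaph. Leaving out any 1 antral library gave 1 to 4 calls in the antrum, where 8.91% to 10.8% of all genes were called lower. Leaving out the inhibited corpus library of line 8028 gave 51 calls in the corpus, where 21.8% of all genes were called lower. Leaving out any 1 of the other corpus libraries gave 2 to 5, where 10.1% to 11.6% were. Mad2l1 and Cenpf were still called lower in the corpus in 20 of 21 alternative settings each, and Mad2l1 in the antrum in 19 of 22. The other calls were less steady. In the corpus they held in 9 (Pttg1) to 15 (Stmn1 and Aspm) of 21 settings, with Anln and Ncaph at 11 and Top2a, Ttk, Hmmr and Ect2 at 12. In the antrum Aspm held in 12, Cenpf in 13 and Stmn1 in 14 of 22.

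With the line as a block, 27 genes were called lower in the antrum and 45 in the corpus, with 0 higher in either. These are 50.9% of the members in the antrum, where 20.2% of all genes tested were called lower, and 84.9% in the corpus, where 23.7% were. All 27 antral genes were among the 45 of the corpus. Leaving out 1 line, chosen after seeing the data, moved these counts. In the antrum 4 genes were called with the block without line 8025, where 11.3% of all genes were called lower, 8 without line 8026 (12.3%) and 6 without line 8028 (14.2%). In the corpus 29 were called lower and Kif23 higher without line 8025, where 16.9% of all genes were called lower, 13 were called lower without line 8026 (13.4%) and 51 without line 8028 (23.7%). The 8 genes called in neither region were Cdc25b, Foxm1, Aurka, Birc5, Cdc20, Ube2c, Cdca3 and Kif23. Counted without a test, 51 of the 53 genes were lower in the inhibited library of all 3 antral lines, where 36.8% of all genes tested were. In the corpus 46 were lower in all 3 lines, beside 35.0% of all genes. Every inhibited library lay below every vehicle library for 37 genes in the antrum, which is 69.8% beside a background of 24.6%. In the corpus this held for 10 genes, or 18.9%, which is near the background of 21.1%.

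The size of the difference varied more between corpus lines than between antral lines. The median log2 ratio over the 53 genes was -0.607, -0.418 and -0.492 in antral lines 8025, 8026 and 8028. It was -1.15, -0.776 and -0.155 in the corpus lines. All 53 genes were lower in corpus line 8025, 52 in line 8026 and 46 in line 8028. Among the inhibited corpus libraries, line 8025 was the lowest and line 8028 the highest for 52 of the 53 genes, Pttg1 being the exception. The Wnt targets had the same order of lines in the corpus, with median log2 ratios of -4.40, -3.62 and -2.43. In the antral lines they were at -2.96, -2.96 and -3.04, not in the order of the mitotic genes. Without the inhibited corpus library of line 8028, 51 of the 53 genes were called lower in the corpus, beside 21.8% of all genes, and the median difference was -1.02. Pttg1 and Kif23 were not called there.

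**Figure D3:**
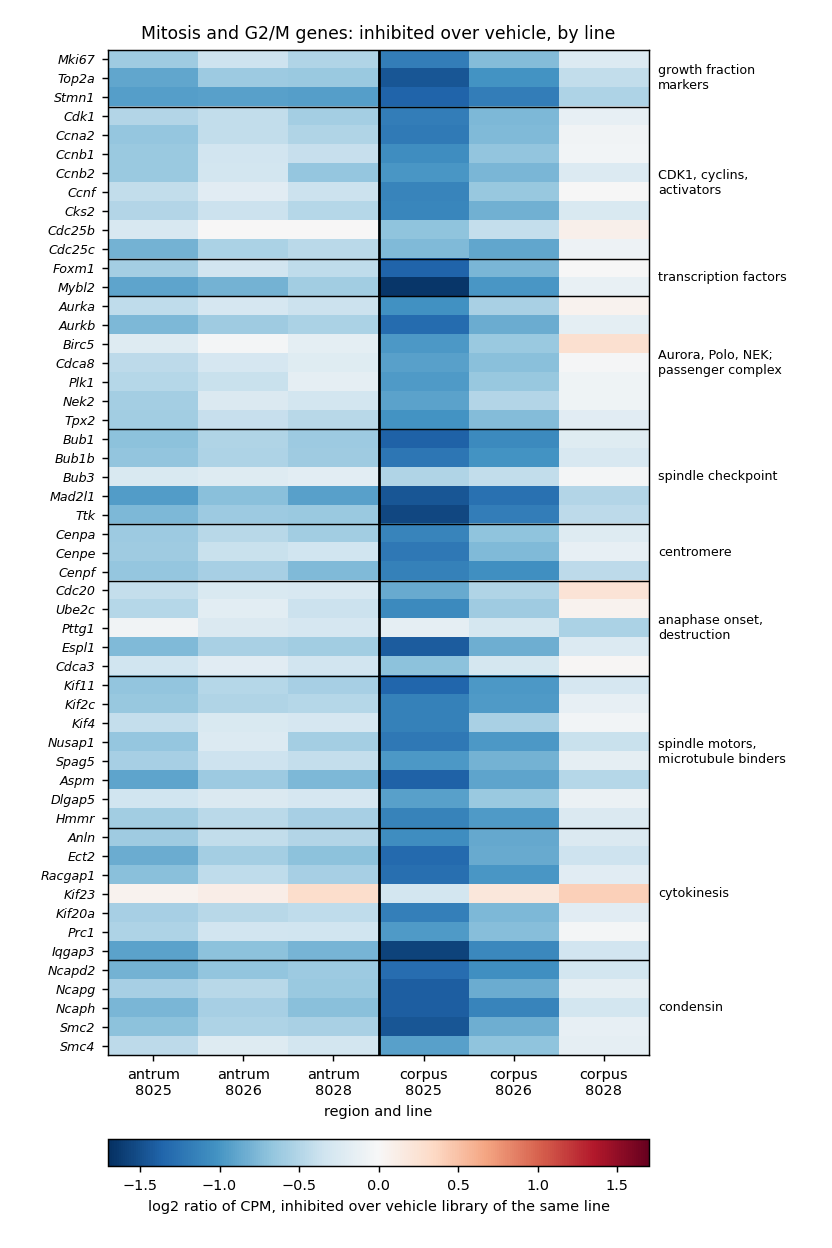
Log2 ratio of CPM, inhibited over vehicle library of the same line, for the 53 genes (rows, grouped by role) in the 3 antral and 3 corpus lines (columns); blue is lower after inhibition. Corpus line 8025 is the darkest column with a median of -1.15, corpus line 8028 the palest with -0.155, and Kif23 is red in 5 of the 6 columns.

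Mki67, Top2a and Stmn1 were grouped here as markers of dividing cells. Mki67 encodes Ki-67, which coats mitotic chromosomes, and had 239.9, 324 and 252 CPM in inhibited antral libraries, against 364, 414 and 359 CPM in vehicle libraries. Its corpus level was 131, 189 and 314 CPM with inhibition, against 295, 315 and 368 CPM with vehicle. Antral groups did not overlap, while the inhibited corpus library of line 8028 reached the vehicle range. The difference was -0.48 ± 0.25 (adjusted p = 0.17; 0.0457 with the line block) in the antrum and -0.62 ± 0.25 (adjusted p = 0.0792; 0.0113 with the line block) in the corpus. Top2a, the topoisomerase that untangles replicated DNA, had 206, 284 and 223 CPM in inhibited antral libraries, against 380.2, 437 and 345 CPM in vehicle libraries, and 111, 161 and 305 CPM in inhibited corpus libraries, against 303, 326 and 406 CPM in vehicle libraries. It fell in the corpus (-0.84 ± 0.29, adjusted p = 0.0482), and its antral difference was -0.70 ± 0.29 (adjusted p = 0.0924; 0.0187 with the line block). Stmn1, which encodes the microtubule-destabilising protein stathmin, had 59.9, 75.2 and 61.7 CPM in inhibited antral libraries, against 115, 142 and 118 CPM in vehicle libraries, and 40.5, 48.1 and 90.8 CPM in inhibited corpus libraries, against 104, 109 and 130.2 CPM in vehicle libraries. Its groups did not overlap in either region. Stmn1 fell in both, with -0.93 ± 0.24 in the antrum (adjusted p = 0.0143) and -0.93 ± 0.24 in the corpus (adjusted p = 0.0136). It had the lowest antral difference of the 53 genes.

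CDK1 and its partners had smaller differences, and 0 of the 8 genes in this group were called without the block in either region. Their median log2 difference was -0.470 in the antrum and -0.519 in the corpus. Cdk1, the kinase that drives entry into mitosis, had 66.9, 83.5 and 62.01 CPM in inhibited antral libraries, against 94.3, 112 and 92.5 CPM in vehicle libraries, and 36.3, 50.3 and 91.5 CPM in inhibited corpus libraries, against 81.6, 85.2 and 101 CPM in vehicle libraries. Its difference was -0.49 ± 0.26 in the antrum (adjusted p = 0.182, or 0.0528 with the line block) and -0.59 ± 0.26 (adjusted p = 0.116; 0.0175 with the line block) in the corpus. Ccna2, which encodes cyclin A2, had 96.4, 128 and 102 CPM in inhibited antral libraries, against 152, 172 and 144 CPM in vehicle libraries, and 51.8, 75.9 and 146 CPM in inhibited corpus libraries, against 119.6, 128 and 151 CPM in vehicle libraries. Its difference was -0.52 ± 0.29 in the antrum (adjusted p = 0.196) and -0.54 ± 0.29 (adjusted p = 0.176; 0.0359 with the line block) in the corpus. Both genes were without overlap in the antrum and overlapped in the corpus. Ccnb1, which encodes cyclin B1, had 79.5, 112 and 83.7 CPM in inhibited antral libraries, against 123, 140.2 and 110.2 CPM in vehicle libraries, and 46.4, 67.7 and 124 CPM in inhibited corpus libraries, against 96.9, 108 and 128 CPM in vehicle libraries. Its groups overlapped in both regions, with -0.44 ± 0.28 in the antrum (adjusted p = 0.268) and -0.48 ± 0.28 (adjusted p = 0.221; 0.0347 with the line block) in the corpus. Cdc25b, a phosphatase that activates CDK1, had the differences nearest 0 of this group, with 58.3, 75.8 and 64.8 CPM in inhibited antral libraries, against 70.2, 75.7 and 64.7 CPM in vehicle libraries, and 39.8, 54.1 and 86.8 CPM in inhibited corpus libraries, against 63.9, 71.4 and 81.96 CPM in vehicle libraries. Its inhibited and vehicle values intermingled, and its difference was -0.083 ± 0.23 in the antrum (adjusted p = 0.811) and -0.26 ± 0.22 in the corpus (adjusted p = 0.406), called with neither test. The other 4 genes, Ccnb2 (cyclin B2), Ccnf (cyclin F), Cks2 (a CDK-binding subunit) and Cdc25c (a second CDK1 phosphatase), were all called lower in the corpus with the line block. Ccnb2, Cks2 and Cdc25c were also called in the antrum with the block, Ccnf was not (adjusted p = 0.21).

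Foxm1 and Mybl2, which encode the FOXM1 and B-MYB activators of this gene group, were among the more variable members. Foxm1 had 37.6, 52.2 and 37.9 CPM in inhibited antral libraries, against 56.3, 65.5 and 51.3 CPM in vehicle libraries, and 17.8, 27.7 and 55.4 CPM in inhibited corpus libraries, against 45.7, 47.4 and 55.7 CPM in vehicle libraries. Inhibited corpus line 8028 was level with its vehicle library, and the other corpus lines were far below theirs. Foxm1 was not called in any of the 4 tests, with -0.44 ± 0.31 in the antrum (adjusted p = 0.317; 0.163 with the block) and -0.56 ± 0.32 in the corpus (adjusted p = 0.205; 0.0513 with the block). Mybl2 had 42.4, 57.1 and 45.9 CPM in inhibited antral libraries, against 79.3, 99.6 and 68.9 CPM in vehicle libraries, and 18.8, 30.6 and 73.4 CPM in inhibited corpus libraries, against 59.3, 61.2 and 80.3 CPM in vehicle libraries. The antral groups did not overlap. Its difference was -0.77 ± 0.38 in the antrum (adjusted p = 0.148; 0.0677 with the block) and -0.71 ± 0.38 in the corpus (adjusted p = 0.182; 0.0437 with the block), with the widest standard errors among the members.

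The Aurora, Polo and NEK kinases and the chromosomal passenger complex had 0 of 7 genes called without the block, and 2 in the antrum and 5 in the corpus with it. Aurka encodes the Aurora kinase of centrosomes and had 44.2, 56.8 and 43.6 CPM in inhibited antral libraries, against 59.6, 69.2 and 56.1 CPM in vehicle libraries, and 23.2, 33.7 and 65.2 CPM in inhibited corpus libraries, against 47.4, 49.5 and 62.5 CPM in vehicle libraries. Its difference was -0.36 ± 0.29 in the antrum (adjusted p = 0.384) and -0.38 ± 0.29 in the corpus (adjusted p = 0.353), with overlap in both. Aurkb, the kinase subunit of the passenger complex, had 41.4, 52.1 and 42.8 CPM in inhibited antral libraries, against 70.6, 79.3 and 62.3 CPM in vehicle libraries, and 22.1, 34.4 and 61.1 CPM in inhibited corpus libraries, against 54.9, 61.8 and 68.7 CPM in vehicle libraries. It lay without overlap in the antrum, with -0.64 ± 0.28 (adjusted p = 0.105; 0.0342 with the line block), and overlapped in the corpus, with -0.65 ± 0.28 (adjusted p = 0.0962; 0.0183 with the line block). Birc5 encodes survivin, a partner of Aurora B in that complex, and its treatments lay closer together. It had 51.5, 68.7 and 51.02 CPM in inhibited antral libraries, against 60.2, 70.3 and 57.4 CPM in vehicle libraries, and 24.9, 33.6 and 73.7 CPM in inhibited corpus libraries, against 49.2, 52.1 and 61.2 CPM in vehicle libraries. Inhibited corpus line 8028 held more Birc5 than any vehicle corpus library. The difference was -0.14 ± 0.31 in the antrum (adjusted p = 0.773) and -0.30 ± 0.31 in the corpus (adjusted p = 0.51), not called with the block either. Plk1, the Polo kinase of mitotic entry and spindle assembly, had 74.5, 93.2 and 76.5 CPM in inhibited antral libraries, against 104, 121 and 85.4 CPM in vehicle libraries, and 43.3, 54.5 and 102 CPM in inhibited corpus libraries, against 84.2, 84.95 and 107 CPM in vehicle libraries. It overlapped in both regions, with -0.35 ± 0.26 in the antrum (adjusted p = 0.341) and -0.47 ± 0.26 (adjusted p = 0.202; 0.028 with the line block) in the corpus. The others were Cdca8 (borealin, of the passenger complex), Nek2 (a centrosome kinase) and Tpx2 (which activates Aurora A on the spindle), each called lower in the corpus with the block, and Tpx2 also in the antrum (adjusted p = 0.0269).

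The spindle checkpoint, which holds cells in metaphase until all chromosomes are attached, held the gene with the lowest corpus difference. Mad2l1 encodes MAD2, the checkpoint protein that binds CDC20, and had 46.8, 60.2 and 50.3 CPM in inhibited antral libraries, against 90.8, 98.2 and 95.3 CPM in vehicle libraries. Its corpus level was 29.96, 39.1 and 64.2 CPM with inhibition, against 82.2, 94.7 and 90.95 CPM with vehicle. All inhibited libraries lay below all vehicle libraries of their region, corpus line 8028 included. Mad2l1 fell in both regions, with log2 differences of -0.85 ± 0.21 in the antrum (adjusted p = 0.0111) and -1.005 ± 0.21 in the corpus (adjusted p = 0.00434). Ttk, the checkpoint kinase MPS1, had 16.2, 22.1 and 17.1 CPM in inhibited antral libraries, against 27.5, 33.8 and 26.6 CPM in vehicle libraries, and 7.62, 10.6 and 21.2 CPM in inhibited corpus libraries, against 22.4, 24.1 and 28.9 CPM in vehicle libraries, again with no overlap. It fell in the corpus (-0.93 ± 0.29, adjusted p = 0.0337), and its antral difference was -0.67 ± 0.29 (adjusted p = 0.108; 0.0181 with the line block). Bub1, a checkpoint kinase at kinetochores, had 31.4, 40.4 and 29.9 CPM in inhibited antral libraries, against 50.96, 57.7 and 45.8 CPM in vehicle libraries, and 17.6, 22.5 and 45.7 CPM in inhibited corpus libraries, against 46.1, 47.7 and 52.5 CPM in vehicle libraries. Its groups were apart in both regions, yet it was called only with the block, at -0.60 ± 0.28 (adjusted p = 0.121; 0.0498 with the line block) in the antrum and -0.77 ± 0.28 (adjusted p = 0.0555; 0.0136 with the line block) in the corpus. Bub3, the small adaptor that brings BUB1 to kinetochores, had 94.6, 105 and 91.8 CPM in inhibited antral libraries, against 113, 122 and 104 CPM in vehicle libraries, and 70.7, 72.6 and 111 CPM in inhibited corpus libraries, against 100.5, 96.8 and 113 CPM in vehicle libraries. The difference of Bub3 was the smallest of the group, -0.22 ± 0.15 in the antrum (adjusted p = 0.298) and -0.29 ± 0.15 (adjusted p = 0.171; 0.0127 with the line block) in the corpus. Bub1b, which encodes BUBR1, was at -0.59 ± 0.27 (adjusted p = 0.126; 0.0257 with the line block) in the antrum and -0.73 ± 0.28 (adjusted p = 0.0651; 0.00727 with the line block) in the corpus.

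Of the centromere proteins, Cenpf was called in both regions. It encodes a large kinetochore protein that accumulates in G2, and had 65.1, 76.1 and 66.2 CPM in inhibited antral libraries, against 103, 113 and 112 CPM in vehicle libraries, and 41.95, 51.97 and 82.3 CPM in inhibited corpus libraries, against 93.5, 107 and 112 CPM in vehicle libraries. No library of one treatment reached the range of the other. Cenpf fell in both regions, with log2 differences of -0.66 ± 0.19 in the antrum (adjusted p = 0.0226) and -0.82 ± 0.19 in the corpus (adjusted p = 0.00716). Cenpa, the histone H3 variant of centromeres, was at -0.55 ± 0.23 (adjusted p = 0.0969; 0.021 with the line block) in the antrum and -0.60 ± 0.23 (adjusted p = 0.0734; 0.00992 with the line block) in the corpus. Cenpe, a kinetochore motor, was at -0.44 ± 0.25 in the antrum (adjusted p = 0.206) and -0.60 ± 0.25 (adjusted p = 0.089; 0.023 with the line block) in the corpus.

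Genes of anaphase onset and of mitotic protein destruction had the median difference nearest 0 of the 10 role groups in both regions, -0.307 in the antrum and -0.329 in the corpus. Cdc20, which activates the anaphase-promoting complex (APC/C), had 113, 152 and 119 CPM in inhibited antral libraries, against 149, 182 and 143 CPM in vehicle libraries, and 63.5, 86.7 and 176 CPM in inhibited corpus libraries, against 115, 124 and 150.2 CPM in vehicle libraries. Inhibited corpus line 8028 had more Cdc20 than any vehicle corpus library, and the other inhibited corpus libraries had less than all of them. Its difference was -0.31 ± 0.29 in the antrum (adjusted p = 0.461) and -0.25 ± 0.29 in the corpus (adjusted p = 0.554), called with neither test. Ube2c, the ubiquitin-conjugating enzyme of the APC/C, had 64.7, 85.1 and 62.5 CPM in inhibited antral libraries, against 90.2, 96.3 and 80.2 CPM in vehicle libraries, and 33.6, 49.4 and 90.7 CPM in inhibited corpus libraries, against 71.3, 75.1 and 87.2 CPM in vehicle libraries. It was likewise not called, with -0.33 ± 0.28 in the antrum (adjusted p = 0.396) and -0.42 ± 0.28 in the corpus (adjusted p = 0.272). Pttg1 encodes securin, the inhibitor of separase, and had 10.7, 10.9 and 10.3 CPM in inhibited antral libraries, against 11.1, 12.9 and 12.6 CPM in vehicle libraries, and 12.4, 10.7 and 9.63 CPM in inhibited corpus libraries, against 13.9, 13.2 and 14.02 CPM in vehicle libraries. In the corpus it was called lower at -0.33 ± 0.11 (adjusted p = 0.0357), and in the antrum it was at -0.20 ± 0.11 (adjusted p = 0.18). The corpus call of Pttg1 is small, and its log2 ratio was lowest in line 8028, with -0.158, -0.304 and -0.538 in lines 8025, 8026 and 8028. It was lost in 12 of 21 alternative settings, among them scaling by relative log expression, no filter on low counts, and leaving out the inhibited library of line 8026 or 8028 or any 1 vehicle corpus library. Espl1, which encodes separase itself, was at -0.62 ± 0.30 (adjusted p = 0.138; 0.038 with the line block) in the antrum and -0.70 ± 0.30 (adjusted p = 0.1; 0.0154 with the line block) in the corpus. Cdca3, which takes part in the destruction of WEE1, was at -0.28 ± 0.20 in the antrum and -0.27 ± 0.20 in the corpus and was not called.

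Spindle motors and microtubule binders included 3 of the 12 genes called in the corpus, and all 8 were called there with the line block. Kif11 encodes the motor Eg5 that pushes spindle poles apart, and had 50.1, 66.3 and 50.8 CPM in inhibited antral libraries, against 79.7, 93.1 and 75.4 CPM in vehicle libraries, and 24.5, 34.5 and 69.4 CPM in inhibited corpus libraries, against 62.4, 67.8 and 84.96 CPM in vehicle libraries. Its antral groups did not overlap, with -0.57 ± 0.30 (adjusted p = 0.173; 0.0369 with the line block), and the corpus difference was -0.74 ± 0.30 (adjusted p = 0.0823; 0.00833 with the line block). Aspm, a spindle pole protein known from hereditary microcephaly, had 27.2, 36.3 and 30.6 CPM in inhibited antral libraries, against 50.96, 55.7 and 52.2 CPM in vehicle libraries, and 17.1, 26.4 and 40.7 CPM in inhibited corpus libraries, against 44.8, 49.04 and 57.1 CPM in vehicle libraries. It fell without overlap in both regions, with log2 differences of -0.75 ± 0.24 in the antrum (adjusted p = 0.0335) and -0.84 ± 0.24 in the corpus (adjusted p = 0.02). Nusap1, a spindle-associated protein, had 33.4, 45.5 and 34.8 CPM in inhibited antral libraries, against 52.8, 53.5 and 51.97 CPM in vehicle libraries, and 19.4, 28.1 and 44.5 CPM in inhibited corpus libraries, against 45.02, 55.2 and 57.7 CPM in vehicle libraries, also without overlap. Nusap1 fell in the corpus (-0.78 ± 0.24, adjusted p = 0.0279), and in the antrum it was at -0.48 ± 0.24 (adjusted p = 0.151; 0.0402 with the line block). Hmmr, a spindle protein that also binds hyaluronan, had 46.3, 56.9 and 49.2 CPM in inhibited antral libraries, against 69.95, 78.4 and 72.5 CPM in vehicle libraries, and 29.2, 38.6 and 65.7 CPM in inhibited corpus libraries, against 64.6, 75.5 and 77.8 CPM in vehicle libraries. Hmmr fell in the corpus (-0.71 ± 0.23, adjusted p = 0.0348) and was at -0.54 ± 0.23 (adjusted p = 0.0958; 0.0289 with the line block) in the antrum. Its inhibited corpus library of line 8028 was just above the lowest vehicle corpus library. Among the others, Kif2c (a kinesin that depolymerises microtubules) and Spag5 (astrin) were called in both regions with the block, and Kif4 (a chromosome-bound kinesin) and Dlgap5 (HURP, which stabilises spindle fibres) in the corpus.

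**Figure D4:**
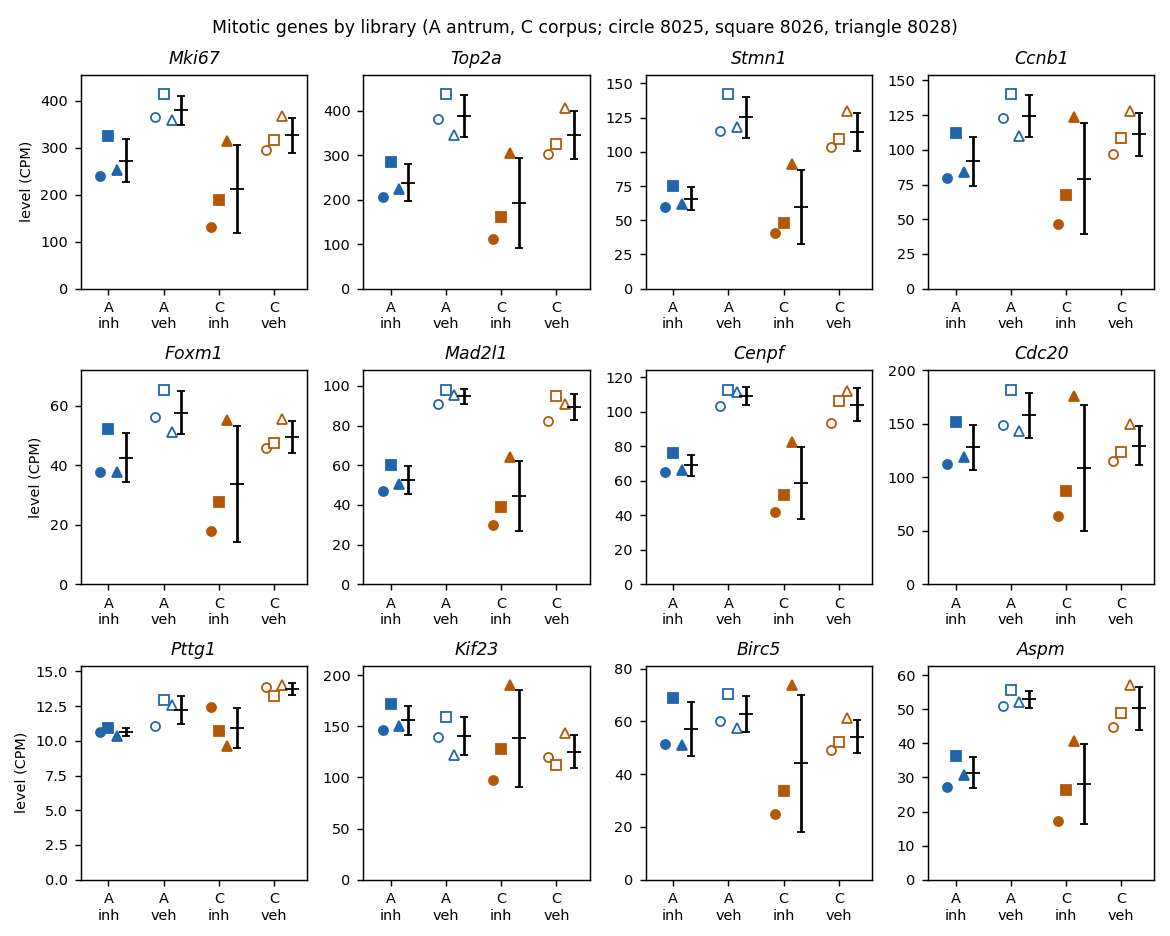
Level in CPM (y axis, from 0) of 12 of the genes in inhibited and vehicle libraries of the antrum and corpus; filled symbols are inhibited, open symbols vehicle, and the bar beside them is the mean ± SD of 3 libraries. Mad2l1, Stmn1, Cenpf and Aspm separate by treatment in both regions, Kif23 does not, and the inhibited corpus triangle (line 8028) is the highest of its group in every panel except Pttg1.

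The cytokinesis genes contained the one gene that ran against the rest. Kif23 encodes a kinesin (MKLP1) of the central spindle, and had 146, 172 and 149.9 CPM in inhibited antral libraries, against 139.9, 159 and 122 CPM in vehicle libraries, and 97.1, 128 and 190.4 CPM in inhibited corpus libraries, against 120.4, 112 and 144 CPM in vehicle libraries. It was higher in the inhibited library of all 3 antral lines and of 2 corpus lines, with overlapping groups. The difference was 0.15 ± 0.20 in the antrum (adjusted p = 0.598) and 0.14 ± 0.20 in the corpus (adjusted p = 0.632), so it was not called in either direction. The corpus sign was -0.00821 with scaling by total counts and -0.131 without the inhibited library of line 8028. Racgap1, the GTPase-activating partner of MKLP1 in the centralspindlin complex, was at -0.56 ± 0.28 in the antrum (adjusted p = 0.162) and -0.70 ± 0.28 (adjusted p = 0.0824; 0.0159 with the line block) in the corpus. Ect2, a cytokinesis protein that centralspindlin recruits, had 77.1, 107 and 81.6 CPM in inhibited antral libraries, against 138, 161 and 132 CPM in vehicle libraries, and 45.7, 62.9 and 110.1 CPM in inhibited corpus libraries, against 114, 114 and 140.4 CPM in vehicle libraries. Ect2 fell in the corpus without overlap (-0.75 ± 0.26, adjusted p = 0.0456), and its antral difference was -0.70 ± 0.26 (adjusted p = 0.0626; 0.0132 with the line block). Anln, the scaffold anillin of the contractile ring, had 80.2, 101 and 77.1 CPM in inhibited antral libraries, against 122, 135 and 108 CPM in vehicle libraries, and 55.5, 68.2 and 118 CPM in inhibited corpus libraries, against 115, 125 and 139 CPM in vehicle libraries. It fell in the corpus (-0.65 ± 0.23, adjusted p = 0.0497), with one inhibited library inside the vehicle range, and was at -0.50 ± 0.23 (adjusted p = 0.119; 0.0244 with the line block) in the antrum. Iqgap3, a scaffold protein found in proliferating epithelial cells, those of the gastric isthmus among them, had 45.2, 63.01 and 44.6 CPM in inhibited antral libraries, against 84.6, 102 and 77.2 CPM in vehicle libraries, and 22.2, 31.3 and 68.95 CPM in inhibited corpus libraries, against 66.2, 66.97 and 86.1 CPM in vehicle libraries. It had the third lowest antral difference, -0.79 ± 0.33 (adjusted p = 0.0938; 0.0241 with the line block), and -0.84 ± 0.33 (adjusted p = 0.0771; 0.0117 with the line block) in the corpus. Prc1 (a cross-linker of midzone microtubules) and Kif20a (MKLP2) were called lower in the corpus with the block, and Kif20a also in the antrum (adjusted p = 0.0415).

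All 5 condensin genes, whose products compact mitotic chromosomes, were lower in the inhibited library of every line in both regions. Ncaph, the kleisin subunit of condensin I, had 45.6, 58.1 and 43.5 CPM in inhibited antral libraries, against 78.5, 85.9 and 70.9 CPM in vehicle libraries, and 24.5, 32.8 and 64.5 CPM in inhibited corpus libraries, against 64.9, 71.1 and 79.9 CPM in vehicle libraries. It fell in the corpus (-0.82 ± 0.28, adjusted p = 0.0423), and in the antrum, also without overlap, it was at -0.68 ± 0.28 (adjusted p = 0.0868; 0.0272 with the line block). Smc4, an ATPase subunit of both condensins, had 117, 149 and 123 CPM in inhibited antral libraries, against 159, 173 and 153 CPM in vehicle libraries, and 75.99, 100.5 and 155 CPM in inhibited corpus libraries, against 144, 162 and 172 CPM in vehicle libraries. Its antral groups were apart although the difference was only -0.32 ± 0.20 (adjusted p = 0.261), and the corpus difference was -0.53 ± 0.20 (adjusted p = 0.0692; 0.00979 with the line block). Smc2, its partner, was at -0.59 ± 0.30 in the antrum (adjusted p = 0.163) and -0.67 ± 0.30 (adjusted p = 0.115; 0.0315 with the line block) in the corpus. Ncapg and Ncapd2, further condensin I subunits, were called lower in the corpus with the block, and Ncapd2 also in the antrum (adjusted p = 0.0165).

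Levels between genes can be compared per length of annotated exon sequence. On that scale, in CPM per kilobase, Cdc20 was the most abundant member, at 68.4 in inhibited and 84.6 in vehicle antral libraries and at 58.2 in inhibited and 69.4 in vehicle corpus libraries. Stmn1 was at 34.1 in inhibited and 65.2 in vehicle antral libraries and at 31.1 in inhibited and 59.5 in vehicle corpus libraries, second to Cdc20 in the vehicle means of both regions. Cdc25c was the least abundant, at 2.28 in inhibited and 3.47 in vehicle antral libraries and 2.03 in inhibited and 2.87 in vehicle corpus libraries. For 10 of the 53 genes (Ccna2, Cdc20, Cdc25b, Cdca8, Kif20a, Kif4, Ncapg, Nusap1, Plk1 and Prc1) exons overlap those of a gene on the opposite strand whose counts exceed 10% of their own. Whether counting used strand was not stated in these sources, so these levels may include reads of the partner. The log2 differences of these 10 genes carry the same limit. The counts of the partner were 66.2% of those of Cdc20 and 86.6% of those of Ncapg. A Ccnb1 pseudogene held 5.23% of the counts of Ccnb1.

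No difference between the regions was called for these genes. The comparisons of antrum with corpus within a treatment did not use the line as a block, although both regions carry the same line numbers. In vehicle libraries 50 of the 53 genes had a higher mean CPM in the antrum than in the corpus, with a median log2 difference (antrum over corpus) of 0.159, but 0 were called, where 0.198% of all genes were, and the lowest adjusted p was 0.473, for Pttg1. After inhibition 52 had a higher mean in the antrum, the median log2 difference was 0.242, and again 0 were called, where 0.0619% of all genes were. The largest difference after inhibition was that of Ttk, 0.48 ± 0.30 (adjusted p = 0.614). The antral response minus the corpus response had a median of 0.115 and ranged from -0.108 for Cdc25c to 0.299 for Nusap1. None of the 53 genes was called for it by edgeR's test, none had an unadjusted p under 0.05, and the share called among all genes was 0.00619%, or 0.0433% with the line block, where 0 members were called as well. The vehicle comparison stayed at 0 calls without corpus line 8028, while the comparison after inhibition and the blocked response moved. Without the inhibited library of that line, 45 of the 53 genes were called higher in inhibited antrum than in inhibited corpus, where 7.63% of all genes were. Without either library of that line it was 49, where 9.24% were. The difference in response stayed at 0 calls without the block, and with the block and without corpus line 8028 it was called for 14 genes, each less lowered in the antrum, where 0.762% of all genes were called in that direction.

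**Figure D5:**
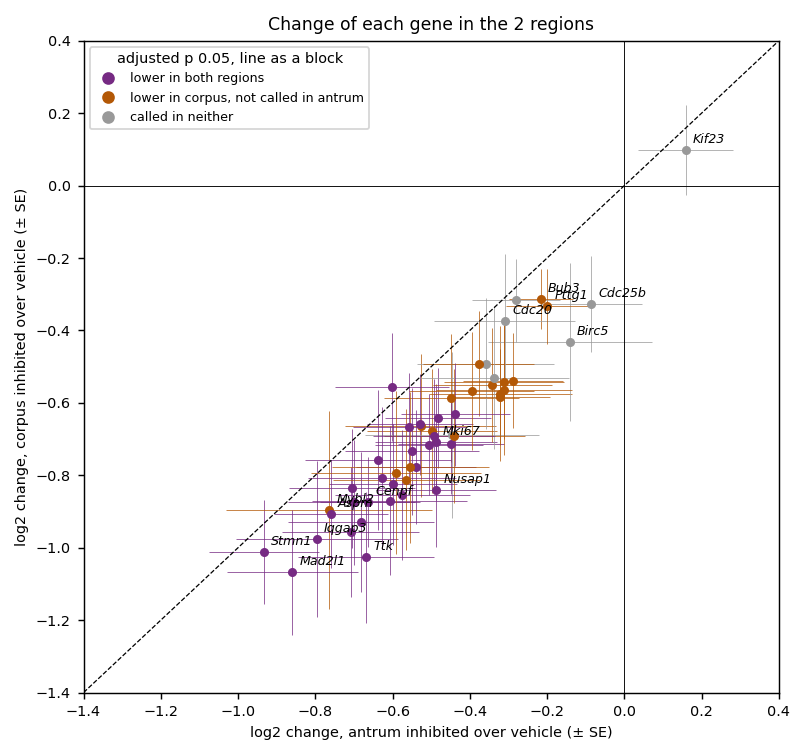
Log2 difference of inhibited over vehicle (± SE, from the test with the line as a block) in the antrum (x axis) and in the corpus (y axis) for the 53 genes; the dashed line marks equal values. All genes except Kif23 lie below 0 on both axes, and the 27 genes called in both regions (purple) lie toward the lower left, with Mad2l1 and Stmn1 at the end.

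Other genes of the same machinery were counted by function. Of 30 other kinetochore and centromere genes, 2 fell in the antrum (6.67%, below the 13.4% of all genes called lower) and 6 in the corpus (20%, beside 15.4%), with 0 rising. With the line block 13 and 22 fell (43.3% and 73.3%, beside 20.2% and 23.7% of all genes). Their median log2 difference was -0.436 and -0.517. Cenpm, a subunit of the constitutive centromere network, had 7.22, 8.69 and 7.12 CPM in inhibited antral libraries, against 12.9, 13.7 and 12.2 CPM in vehicle libraries, and 4.62, 6.16 and 9.48 CPM in inhibited corpus libraries, against 12.6, 13.6 and 16.1 CPM in vehicle libraries. It fell in both regions without overlap, with log2 differences of -0.75 ± 0.21 (adjusted p = 0.0199) and -1.06 ± 0.21 (adjusted p = 0.00298). The others named by the smallest adjusted p were Ska2 (-0.61 ± 0.20 and -0.86 ± 0.20, adjusted p = 0.0377 and 0.0067 in antrum and corpus) and Nuf2 of the NDC80 complex, which fell in the corpus (-1.03 ± 0.31, adjusted p = 0.0271). Of 23 other spindle and cytokinesis genes, 5 fell in the antrum (21.7%) and 7 in the corpus (30.4%) with 0 rising, or 13 (56.5%) and 20 (87%) with the block, at a median of -0.479 and -0.603. Psrc1, a microtubule-binding protein of the spindle, had 35.2, 26.9 and 31.2 CPM in inhibited antral libraries, against 77.6, 63.4 and 59.5 CPM in vehicle libraries, and 47.1, 35.5 and 32.7 CPM in inhibited corpus libraries, against 89.7, 90.8 and 80.1 CPM in vehicle libraries. It had the smallest adjusted p of the cell cycle lists, with -1.10 ± 0.15 in the antrum (adjusted p = 0.000249) and -1.18 ± 0.15 in the corpus (adjusted p = 0.000154). Ckap2, a spindle microtubule protein, had 23.9, 30.2 and 22.2 CPM in inhibited antral libraries, against 49.6, 48.9 and 41.8 CPM in vehicle libraries, and 16.1, 18.5 and 30.6 CPM in inhibited corpus libraries, against 49.9, 52.2 and 54.4 CPM in vehicle libraries. It fell in both, at -0.88 ± 0.20 in the antrum and -1.26 ± 0.20 in the corpus (adjusted p = 0.00679 and 0.000769), and Ckap5, a microtubule polymerase, fell less (-0.26 ± 0.08 and -0.36 ± 0.08, adjusted p = 0.031 and 0.00568). Of 13 other condensin and cohesin genes, 2 fell in the antrum (15.4%) and 3 in the corpus (23.1%) with 0 rising, or 7 (53.8%) and 9 (69.2%) with the block, at a median of -0.282 and -0.279. They were led by Pds5b, a cohesin regulator, with -0.75 ± 0.20 and -0.88 ± 0.20 (adjusted p = 0.0168 and 0.00689). Ncapd3 of condensin II fell in both (-0.55 ± 0.18 and -0.61 ± 0.18, adjusted p = 0.0357 and 0.022), and Smc3 of cohesin in the corpus (-0.37 ± 0.12, adjusted p = 0.0453).

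Regulators of CDK1 included genes called lower and genes called higher. Of 11 genes that act on CDKs or their substrates or at mitotic exit, 3 fell (27.3%) and 2 rose (18.2%) in each region. Of all genes, 13.4% were called lower and 16.3% higher in the antrum, and 15.4% and 15.5% in the corpus. The share that rose was thus near that of all genes. With the line block 3 fell (27.3%) and 2 rose (18.2%) in the antrum, beside 20.2% and 20.6% of all genes. In the corpus 4 fell (36.4%) and 2 rose (18.2%) with the block, beside 23.7% and 19.8%. The median without the block was -0.317 in the antrum and -0.200 in the corpus. Wee1, the kinase that inhibits CDK1, fell to 16.97, 22.9 and 17.8 CPM in inhibited antral libraries, against 29.6, 31.7 and 28.4 CPM in vehicle libraries, and to 13.1, 15.9 and 22.8 CPM in inhibited corpus libraries, against 30.6, 29.7 and 31.2 CPM in vehicle libraries (-0.64 ± 0.17 and -0.82 ± 0.17 in antrum and corpus, adjusted p = 0.0167 and 0.00407). Cdc25a, a phosphatase that activates CDKs, had 67.9, 72.6 and 69.2 CPM in inhibited antral libraries, against 56.7, 59.4 and 52.6 CPM in vehicle libraries, and 59.8, 69.5 and 78.02 CPM in inhibited corpus libraries, against 55.5, 50.03 and 55.7 CPM in vehicle libraries. It rose without overlap in both regions (0.31 ± 0.092 and 0.36 ± 0.092, adjusted p = 0.0245 and 0.0112), unlike its relatives Cdc25b and Cdc25c. Cks1b, a CDK-binding subunit, fell in both (-0.62 ± 0.17 and -0.58 ± 0.17, adjusted p = 0.0161 and 0.0218). Mastl, the Greatwall kinase that keeps CDK1 substrates phosphorylated, fell too (-0.70 ± 0.21 and -0.80 ± 0.21), and Fzr1, which encodes the APC/C activator CDH1 of mitotic exit and G1, rose (0.23 ± 0.067 and 0.21 ± 0.066). Mastl and Fzr1 complete the count without the block and were named after their values were seen. Of 12 APC/C subunits, 1 fell and 1 rose in each region without the block. These are 8.33% each, below the shares of all genes without the block, with a median of -0.108 and -0.156. Anapc2 rose (0.34 ± 0.064 and 0.33 ± 0.064, adjusted p = 0.00191 and 0.00245) and Cdc23 fell (-0.40 ± 0.099 and -0.44 ± 0.099, adjusted p = 0.011 and 0.00561).

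Of 11 genes of the DREAM and MuvB complex, 2 fell in the antrum (18.2%, beside 13.4% of all genes) and 3 in the corpus (27.3%, beside 15.4%) with 0 rising. With the block it was 5 (45.5%) and 6 (54.5%), beside 20.2% and 23.7% of all genes. The median was -0.194 and -0.365. Tfdp2, a partner of E2F factors, and Rbbp4, a histone-binding subunit of MuvB, fell in both regions. Their differences were -0.39 ± 0.082 and -0.49 ± 0.081 (adjusted p = 0.00411 and 0.000863) for Tfdp2 and -0.44 ± 0.10 and -0.49 ± 0.10 (adjusted p = 0.00805 and 0.0042) for Rbbp4. E2f5, a repressive E2F, fell in the corpus (-0.30 ± 0.092, adjusted p = 0.0293). Of 11 genes of p53 and p21 arrest, 2 fell in the antrum (18.2%) and 6 in the corpus (54.5%) with 0 rising. With the block 5 (45.5%) and 7 (63.6%) fell, beside the same 20.2% and 23.7%. With the block 2 rose in each region (18.2%), below the 20.6% and 19.8% of all genes called higher. The median was -0.137 and -0.303. Sesn1, Phlda3 and Eda2r, all p53 targets, were led by Sesn1 (-0.42 ± 0.098 and -0.43 ± 0.098, adjusted p = 0.00772 and 0.00661). Phlda3 also fell in both (-0.33 ± 0.089 and -0.37 ± 0.089, adjusted p = 0.0172 and 0.00844), and Eda2r fell in the corpus (-0.79 ± 0.22, adjusted p = 0.0168). Cdkn1a, which encodes the CDK inhibitor p21, had 314, 289.9 and 301 CPM in inhibited antral libraries, against 227, 184 and 257 CPM in vehicle libraries, and 431, 374 and 244 CPM in inhibited corpus libraries, against 278, 266 and 214 CPM in vehicle libraries. It was above vehicle in each line, with 0.44 ± 0.19 (adjusted p = 0.101; 0.00555 with the line block) in the antrum and 0.47 ± 0.19 (adjusted p = 0.0787; 0.00588 with the line block) in the corpus. It was singled out after its values were seen.

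Of 24 S phase genes, 3 fell in the antrum (12.5%, beside 13.4% of all genes called lower) and 1 in the corpus (4.17%, beside 15.4%), with 0 rising, so without the block the shares were below those of all genes. With the block 13 (54.2%) and 20 (83.3%) fell, beside 20.2% and 23.7% of all genes. Their median difference of -0.553 in the antrum and -0.616 in the corpus was close to that of the mitotic genes, at -0.494 and -0.601. Pola1, the catalytic subunit of DNA polymerase alpha, fell in both regions (-0.79 ± 0.26 and -0.85 ± 0.26, adjusted p = 0.0379 and 0.0275). Ung, which removes uracil from DNA, and E2f1, an activator of S phase genes, fell in the antrum (-0.76 ± 0.24 and -0.65 ± 0.21, adjusted p = 0.0351 and 0.0404).

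Markers of pit cells and of chief and neck cells also differed between inhibited and vehicle libraries. The pit cell markers Muc5ac, Tff1, Gkn1 and Gkn2 were all called higher in both regions and summed to 3382, 4037 and 2897 CPM in inhibited antral libraries, against 252, 309 and 309 CPM in vehicle antral libraries. In the corpus they summed to 3200, 2513 and 1521 CPM with inhibition, against 331, 296 and 208 CPM with vehicle. Inhibited corpus line 8028, with the highest mitotic sum of the inhibited libraries, had the lowest pit marker sum. The inhibited antral libraries did not show this order. There line 8026 had the highest mitotic sum, 4322 CPM, and also the highest pit marker sum, 4037 CPM. Of the 4 markers of chief and neck cells, Cblif, Pgc and Muc6 were called lower and Tff2 higher in both regions. Tff2 averaged 1112 CPM in inhibited and 149.8 CPM in vehicle antral libraries, and 829 CPM in inhibited and 172.6 CPM in vehicle corpus libraries, so it made up most of the sum after inhibition. Muc6 averaged 32.6 CPM in inhibited and 338.6 CPM in vehicle antral libraries, and 12.3 CPM in inhibited and 203 CPM in vehicle corpus libraries. The sum of the 4 ranged from 884 to 1505 CPM in inhibited and from 413 to 762.5 CPM in vehicle antral libraries, and from 673 to 1161 CPM and from 506 to 731 CPM in the corpus. The part of cell composition in the mitotic differences was not tested.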

How the data were processed

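The data are poly(A) RNA-seq of 12 organoid libraries, 3 in each of 4 groups, grouped by the treatment and cell type labels. Per the submitters' processing notes, reads were trimmed with cutadapt 2.3, checked with FastQC 0.11.8, aligned with STAR 2.7.8a to GRCm38 and quantified with RSEM 1.3.3, which shares reads that match several genes among them. The authors deposited expected counts per gene, already whole numbers. The annotation release and strand setting are not stated in those notes or in the labels. The 5 transgene rows, with 2 counts in all, were left out, which leaves 55421 gene rows.

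Genes were kept by edgeR's filterByExpr (16152 genes), scaled by TMM and tested with edgeR 4.0.16 (quasi-likelihood, robust, two-sided) in 1 fit of all 12 libraries and 4 groups, with 8 residual degrees of freedom and a Benjamini-Hochberg adjusted p of 0.05. Log2 ratios per line used CPM with a prior count of 2. The protocol treats the same lines with inhibitor and vehicle, and same-line libraries of a region deviated together (correlation 0.157 to 0.544 over genes), so the line number pairs libraries within a region. The paired fit with the line as a replicate block has 4 residual degrees of freedom and called 27 members in the antrum and 45 in the corpus. The scripts were tested on simulated data. No 2 libraries of a group agreed within sampling noise.

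Exon lengths come from GENCODE vM21 and promoters from RefSeq (GRCm38.p6). Genes named with a value in every library were those set by role, those called without the block in any comparison, and the 3 lowest and 3 highest in each region. From each further list up to 3 with the smallest adjusted p were named. The members and lists were chosen with earlier results of these data known. Alternatives were other scalings (RLE, upper quartile, total counts), filters, DESeq2 1.42.0, limma-voom (limma 3.58.1), the line block, fits of 6 libraries and leaving out libraries.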

Additional observations from a re-analysis of the deposited data

How the results depend on the processing

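The direction was steadier than the calls: the median log2 difference of the members stayed below 0 in every setting tried, at -0.629 to -0.398 in the antrum and -1.02 to -0.353 in the corpus when single libraries or lines were left out, and at -0.626 in the antrum without the vehicle antral libraries of lines 8025 and 8028. Scaling by total counts, which moved the median of all genes to -0.193 in the corpus, called 19 members lower in the corpus, where 23.1% of all genes were called lower (the same share is given in parentheses for the next settings, antrum first). Without the filter on low counts 1 was called in the antrum and 2 in the corpus (6.07% and 7.15%). DESeq2 called 10 and 23 (14.3% and 16.2%), and limma-voom 6 and 27 (13.5% and 16.7%). Fits of the 6 libraries of a region alone called 37 and 2 (16.9% and 10.4%). The line as a replicate block called 27 in the antrum and 45 in the corpus. Leaving out 1 library, or both of a line, gave 0 to 4 calls in the antrum, where 6.28% to 10.8% of all genes were called lower. In the corpus it gave 0 to 51, where 7.17% to 21.8% were. Between inhibited antrum and inhibited corpus it gave 0 to 49, where up to 9.24% of all genes were called higher. With the paired block and 1 line left out, chosen after seeing the data, 4, 8 and 6 were called in the antrum without line 8025, 8026 or 8028, and 30 (29 lower and Kif23 higher), 13 and 51 in the corpus, the last being the setting where 14 differed in response. Signs changed for 3 genes that were called in neither main comparison. Kif23 was at -0.00821 in the corpus under total counts, -0.0323 under the block without line 8028, -0.131 to 0.356 with libraries left out, and -0.0285 in the antrum without the 2 vehicle libraries named above. Cdc20 ranged from -0.761 to 0.0289 in the corpus and Cdc25b from -0.190 to 0.0110 in the antrum, or 0.0122 under the block without antral line 8025. The causes of these shifts were not tested. All 53 members passed the filter on low counts, and precision is limited by 3 libraries per group. With a line left out, a fit assumes that the remaining libraries vary like those of the other groups.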
